A study of Mus musculus with 30 samples.

Results

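Srebf1, Srebf2, Scap, Insig1, Lrp1, Nr1h2, Nr1h3, Abca1 and Abcg1 control how much cholesterol a cell makes, takes up and releases. These 9 protein-coding genes were chosen by name and were found by their symbols among the 30952 genes of the deposited table, and 9 of 9 were present. They were followed in microglia and astrocytes that were sorted from spinal cord, taken from naive mice and from mice with experimental autoimmune encephalomyelitis (EAE), an induced autoimmune disease of the central nervous system used as a model of multiple sclerosis. The animals were female C57BL/6 mice, and those with EAE were 8 to 10 weeks old at immunization. EAE was induced by immunization with a peptide of myelin oligodendrocyte glycoprotein, and at a clinical score of about 1 the mice received vehicle (20% Captisol) or the RIPK1 kinase inhibitor GSK'547 at 50 mg/kg by oral gavage 2 times a day for 3 days. Naive mice carried no disease and no treatment, so the EAE-vehicle against naive comparison holds immunization, disease and vehicle together. Each cell type was represented by 4 naive, 6 EAE-vehicle and 5 EAE-RIPK1inh libraries, 30 libraries in all, and the labels do not say which microglial and astrocytic libraries came from 1 mouse. The libraries may stand for as few as 15 mice with both cell types taken from each, while comparisons between cell types treated them as independent.

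Cells sense cholesterol in the membrane of the endoplasmic reticulum. When sterol is low, SCAP escorts the sterol regulatory element-binding proteins (SREBP-1, encoded by Srebf1, and SREBP-2, encoded by Srebf2) to the Golgi, where they are cut and released to switch on genes of fatty acid and cholesterol synthesis. INSIG1 holds SCAP back when sterol is plentiful. The liver X receptors LXRβ (Nr1h2) and LXRα (Nr1h3) work in the other direction, binding oxysterols and switching on export through the transporters ABCA1 and ABCG1, while LRP1 takes up lipoproteins that carry APOE. In the adult central nervous system astrocytes supply much of the cholesterol, and microglia take up and export the cholesterol of myelin debris.

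The values are log2 FPKM, a level per length of transcript and per depth of library, and were quantile-normalized over the 30 libraries, so a difference of 1 is a doubling on that scale and a level can be compared between genes. The deposited values ran from 0 to 15.34. Depth cannot be read from such values. The number of genes with signal stood in for it and was 8710 to 20398 in microglial and 6728 to 22981 in astrocytic libraries, with EAE-vehicle astrocyte library 1 at the lower end. Of the 270 pairs of a member and a library, 18 held no signal, 5 of them in that library. A value without signal need not be 0, and such values reached 2.74 in that library. Microglia were sorted on CD11b, CD45 and CX3CR1 and astrocytes on GLAST, so Itgam, Cx3cr1 and Slc1a3 among the markers were also used to choose the cells. Microglia marker genes averaged 7.68 to 10.8 log2 units in microglial libraries, and astrocyte marker genes averaged 7.60 to 9.42 in astrocytic libraries. The astrocytic libraries also held oligodendrocyte transcripts, whose 7 markers averaged 6.19 to 7.39 in naive, 6.38 to 9.91 in EAE-vehicle and 7.81 to 9.19 in EAE-RIPK1inh libraries. T cell markers (8 of 9 measured) averaged 0.17 to 0.98, 0.94 to 5.63 and 0.84 to 5.24 in the same groups, and monocyte and neutrophil markers 0.10 to 1.10, 1.62 to 4.52 and 1.27 to 4.99. Naive astrocyte library 4 held endothelial transcripts, with markers at 4.05 against 0.18 to 0.57 in the other naive libraries. The annotation marks Srebf1, Srebf2, Scap, Lrp1, Nr1h3 and Abcg1 as confounded with another gene, so part of their reads may be shared. To be called, a gene needed a change of more than 1.5-fold with limma's p below 0.05 before adjustment, as the study set it.

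On GRCm38, Srebf1 lies at chr11:60199089-60222581, Srebf2 at chr15:82147181-82205379, Scap at chr9:110333288-110384950, Insig1 at chr5:28071363-28078662, Lrp1 at chr10:127538161-127621148, Nr1h2 at chr7:44549616-44553951, Nr1h3 at chr2:91184061-91202834, Abca1 at chr4:53030787-53159895 and Abcg1 at chr17:31057675-31117988. The promoters of 3 members are shown as examples, those of Abca1 and Srebf1 for an LXR element that they share and that of Insig1 for an E-box upstream of its start, which 1 of the Scap windows also held. Sequences come from RefSeq on GRCm38.p6, where 8 of the 9 members had 12 windows between them, each from 250 bases before to 50 bases after a transcription start. The 250 bases before the start are printed, read along the gene. Capitals mark the E-box (CACGTG), which SREBPs and other basic helix-loop-helix factors bind, and the LXR element known from Abca1 and Srebf1 (TGACCGNNAGTAACC), and both were searched on either strand.
Abca1, chr4:53159896-53160145, minus strand: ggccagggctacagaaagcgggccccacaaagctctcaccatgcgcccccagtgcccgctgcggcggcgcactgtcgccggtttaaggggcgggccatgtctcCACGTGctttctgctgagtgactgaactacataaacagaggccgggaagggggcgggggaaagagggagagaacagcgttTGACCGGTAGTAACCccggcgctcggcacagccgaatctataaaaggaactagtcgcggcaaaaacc
Insig1, chr5:28071162-28071411, plus strand: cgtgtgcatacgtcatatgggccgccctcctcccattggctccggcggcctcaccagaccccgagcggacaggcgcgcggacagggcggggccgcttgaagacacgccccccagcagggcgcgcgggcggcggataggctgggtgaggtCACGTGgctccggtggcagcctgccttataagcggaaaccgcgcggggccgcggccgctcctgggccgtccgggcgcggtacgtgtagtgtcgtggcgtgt
Srebf1, last of its listed starts, chr11:60210472-60210721, minus strand, inside the gene: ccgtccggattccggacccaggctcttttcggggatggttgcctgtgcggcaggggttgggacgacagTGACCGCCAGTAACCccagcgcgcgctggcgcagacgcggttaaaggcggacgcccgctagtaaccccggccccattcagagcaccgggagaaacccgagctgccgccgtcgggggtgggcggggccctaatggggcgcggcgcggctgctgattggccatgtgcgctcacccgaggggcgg
The LXR element began at -67 from the Abca1 start and at -182 from that Srebf1 start. It was found in 3 of 32851 windows of the same length, 0.0091% of all, these 2 and that of Fasn, the fatty acid synthase. The LXR direct repeat known as DR4 had been searched first and was in none of the member windows and in 0.0822% of all. The spelling above was read from the 2 promoters after the sequences had been seen, so its share of windows describes that choice. The E-box began at -147 in Abca1 and at -101 in Insig1 and was also present in both Scap windows, at 29 after the first listed start and at -40 from the second, while 7.15% of all windows held it. A sterol regulatory element spelled TCACNCCAC was in none of the 12 member windows and in 1.24% of all. The other 2 Srebf1 windows, the 2 Nr1h3 windows and those of Nr1h2, Lrp1 and Srebf2 held neither motif. Abcg1 had no window. A match of letters does not show that a factor binds there.

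In naive mice 4 of the 9 genes differed between the cell types past adjustment. Astrocytic libraries held the higher levels of Srebf1, Srebf2 and Insig1, and microglial libraries that of Abcg1, while Lrp1 and Nr1h2 were abundant in both. The naive astrocytic libraries also held oligodendrocyte markers at 6.63 and neuron markers at 4.76, against 2.04 and 0.44 in naive microglial libraries. The part of such transcripts in the differences between cell types was not tested. In naive microglia Lrp1 was first with a level of 6.61 ± 0.52 (SD, n = 4), followed by Abcg1 at 5.99 ± 1.05, Nr1h2 at 5.41 ± 0.33, Insig1 at 3.91 ± 0.63, Abca1 at 3.79 ± 0.31, Scap at 3.37 ± 0.48, Srebf2 at 2.92 ± 1.22, Srebf1 at 1.72 ± 1.37 and Nr1h3 at 0.46 ± 0.86. Of the 8 neighboring pairs in that order only Nr1h2 and Insig1 had ranges that did not touch. In naive astrocytes Insig1 led with a level of 7.11 ± 0.36 (SD, n = 4), followed by Lrp1 at 6.93 ± 0.35, Srebf2 at 6.23 ± 1.20, Srebf1 at 5.92 ± 0.30, Nr1h2 at 5.59 ± 0.93, Scap at 4.17 ± 0.61, Abca1 at 3.09 ± 0.67, Nr1h3 at 2.46 ± 1.85 and Abcg1 at 1.83 ± 1.49. Here only Scap and Abca1 had ranges apart. In the EAE groups no neighboring pair had ranges apart in either cell type.

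Srebf1 measured 1.62, 1.89, 3.35 and 0.00 in the 4 naive microglial libraries and 6.10, 5.97, 6.14 and 5.49 in the naive astrocytic libraries. Every astrocytic value lay above every microglial value, and the 0.00 belonged to a library without signal for the gene. The microglial level was lower by a log2 difference of -4.21 (standard error 0.74, limma adjusted p = 1.17e-04). Insig1 measured 4.59, 4.22, 3.14 and 3.68 in naive microglia against 7.22, 6.65, 7.05 and 7.51 in naive astrocytes, a log2 difference of -3.20 (standard error 0.59, limma adjusted p = 2.24e-04). Srebf2 was lower in microglia by -3.31 log2 units (standard error 0.96, limma adjusted p = 0.0195), and its adjusted p over the alternatives ran from 0.00132 to 0.0873. Abcg1 went the other way, with 7.07, 6.35, 4.58 and 5.95 in naive microglia and 0.12, 3.75, 1.63 and 1.82 in naive astrocytes. That difference was 4.16 log2 units (standard error 0.89, limma adjusted p = 0.00124). For these 4 genes the groups did not overlap, and the exact permutation test, two-sided, gave its smallest possible p of 0.0286. Nr1h3 was called lower in microglia (-2.0 log2 units, limma adjusted p = 0.200), and it lost the call without astrocyte naive library 2 or 3 or microglia naive library 2, 3 or 4, with differences from -1.87 to -1.46. Scap, Lrp1, Nr1h2 and Abca1 were not called, with differences of -0.80 (95% interval -2.50 to 0.90), -0.31 (-1.39 to 0.76), -0.18 (-1.63 to 1.27) and 0.70 (-0.23 to 1.63) log2 units. Here 5 of 9 members were called, where 19.7% of all 30952 genes were and 41.8% of those of a mean log2 value of at least 1. Past adjustment were 4 of 9 members and 11.9% of all genes. Groups without overlap made up 13.9% (microglia lower) and 15.9% (microglia higher) of genes of a mean of at least 1.

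**Figure D1:**
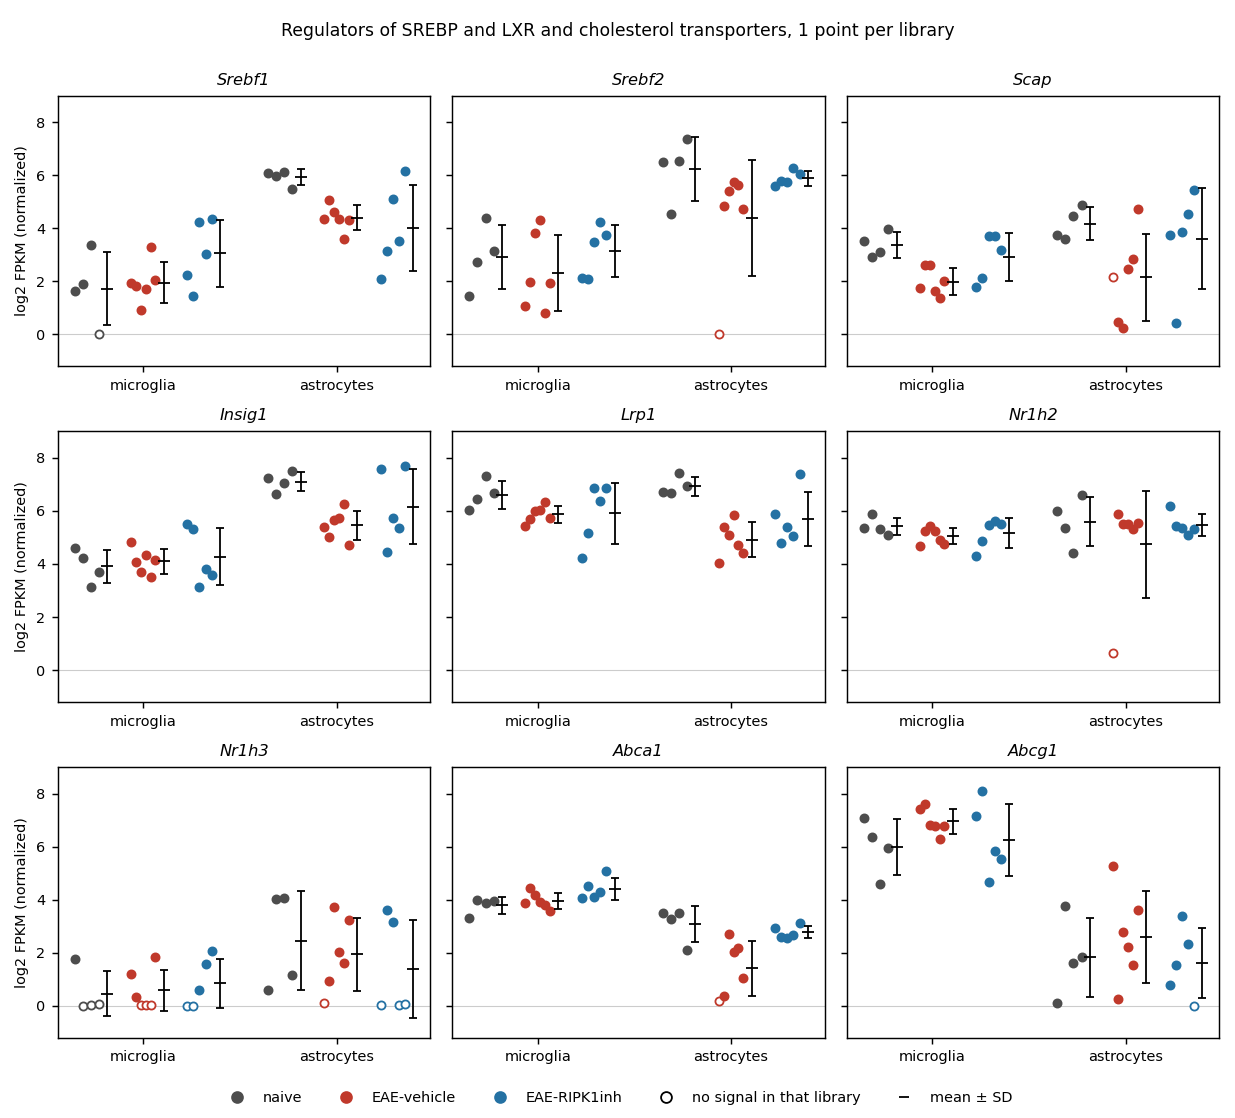
Level of each of the 9 genes in log2 FPKM (y axis) in every library, with microglia on the left and astrocytes on the right of each panel and the groups by color. Filled points had signal in that library and open points did not, and the bar at the right of each group is its mean ± SD. Abcg1 lies at 4.58 to 8.09 in microglia and at 0.00 to 5.27 in astrocytes, and 1 EAE-vehicle astrocyte library sits at 0.00 for Srebf2 and 0.66 for Nr1h2.

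In EAE-vehicle mice Srebf1 and Abcg1 kept that order. Srebf1 was lower in EAE-vehicle microglia than in EAE-vehicle astrocytes by -2.44 log2 units (limma adjusted p = 0.00493), and Abcg1 was higher by 4.34 (limma adjusted p = 6.01e-05). Abca1, the exporter that loads cholesterol onto apolipoproteins, was also higher in microglia there, at 3.95 ± 0.31 (SD, n = 6) against 1.42 ± 1.04, a difference of 2.54 (limma adjusted p = 8.99e-06). The groups did not overlap for these 3 genes, as for 8.35% (lower) and 12.2% (higher) of genes of a mean of at least 1, and the exact permutation p was 0.00216, the smallest possible with 6 against 6. Srebf2 (-2.07), Insig1 (-1.36) and Lrp1 (0.96) were called without passing adjustment. Srebf2 passed it (-2.95, limma adjusted p = 7.90e-04) without astrocyte naive library 4 and EAE-vehicle library 1, of which the second had no signal for the gene. Lrp1 lost the call without library 1, 5 or 6 of the astrocytes or 3, 4 or 5 of the microglia. In the EAE-RIPK1inh libraries Abca1 was higher in microglia by 1.63 (limma adjusted p = 0.00584) and Abcg1 by 4.64 (limma adjusted p = 9.02e-05), while Srebf2 was lower by -2.74 (limma adjusted p = 0.0306) and Insig1 by -1.89 (limma adjusted p = 0.0143). Srebf1 was not called there (-0.95, 95% interval -2.30 to 0.40). Members called numbered 6 of 9 in EAE-vehicle and 4 of 9 in EAE-RIPK1inh libraries, beside 22.4% and 21.7% of all genes. Of genes of a mean log2 value of at least 1, 48.5% and 46.4% were called. Members past adjustment numbered 3 and 4, beside 13.8% and 13.0% of all genes. In the EAE-RIPK1inh libraries Srebf2, Abca1 and Abcg1 did not overlap, as 12.0% (lower) and 14.2% (higher) of genes did not. Nr1h3 held no signal in 8 of 15 microglial and 4 of 15 astrocytic libraries, while Nr1h2 was at 4.30 or above in each microglial library. The target lists differed among themselves in naive mice, where 9.64% of all genes were called lower in microglia than in astrocytes and 10.0% higher. Of genes of a mean log2 value of at least 1 these shares were 19.3% and 22.6%. Of 22 SREBP-2 targets 17 were called lower and 0 higher, with 15 of them past an adjusted p of 0.05 in limma. Of the 11 SREBP-1 targets 10 were lower, all past adjustment, with a median log2 difference of -4.19 against -0.01 over all genes. Among these SREBP-1 targets were Fads2, a fatty acid desaturase, at 0.44 in microglia and 8.01 in astrocytes, and Scd1, which makes oleate, at 0.18 and 7.38. The SREBP-2 targets called lower included Sqle, an enzyme that commits squalene to sterols, at 0.83 and 6.24. They also included Idi1, an isomerase of the mevalonate pathway, at 2.28 and 6.98. Of 12 LXR targets 4 were called higher and 6 lower in microglia. Of 11 genes of efflux and lipoproteins 0 were called higher and 7 lower, among them Clu, clusterin, at 0.81 and 10.66 and Apod at 0.23 and 5.65. The lists share genes, so their counts are not separate. Scd1 and Scd2 are in both the SREBP-1 and the LXR list, and Apoe, Apoc1, Pltp and Abca7 in both the LXR and the efflux list. Trem2, a lipid receptor of microglia, was at 10.65 in microglia and 1.67 in astrocytes, and Mylip, an E3 ubiquitin ligase, at 6.31 and 1.28. Oligodendrocyte and neuron transcripts in the astrocytic libraries were not separated from these differences between cell types.

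In astrocytes, a regulator of lipid synthesis, its brake, the uptake receptor and an exporter were called lower in EAE. Against naive mice, Srebf1, Insig1, Lrp1 and Abca1 were called lower in EAE-vehicle mice, 4 of 9 members, and 0 were called higher. Of all 30718 genes tested 6.71% were called, 2.69% (827 genes) as higher and 4.01% (1233 genes) as lower. Of those of a mean log2 value of at least 1, which all members met, 15.9% were called and 9.02% called lower. Quantile normalization gave the 30 libraries the same set of values, so their medians over all genes are equal. Over genes of a mean log2 value of at least 1, the library medians averaged 3.07 in naive and 2.90 in EAE-vehicle astrocytes. With each library centered on its median over such genes the split was 1062 higher and 1012 lower. Centered in that way, the changes of Srebf1, Insig1, Lrp1 and Abca1 were -1.42, -1.52, -1.89 and -1.55, and all but that of Srebf1 were called. None of the 9 passed an adjusted p of 0.05 in limma. The median log2 change of the members was -1.64 against 0.03 over all genes tested, and 8 of 9 changes were below 0. In RNA of a sorted population, fewer cells of a type and less RNA per cell cannot be told apart.

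Srebf1 measured 6.10, 5.97, 6.14 and 5.49 in naive astrocytes and 3.61 at the lowest, 4.36 at the median and 5.06 at the highest in the 6 EAE-vehicle libraries. All 6 lay below all 4. The log2 change was -1.53 (standard error 0.64, limma p = 0.0303 and adjusted p = 0.587), and the exact permutation test, two-sided, gave p = 0.00476, the smallest that 4 against 6 allows. The call was lost, with the same direction, when naive library 1, 2 or 3 or EAE-vehicle library 5 was left out (changes of -1.48, -1.52, -1.46 and -1.38) and when each library was centered on its median. Insig1, the brake on SCAP, measured 7.22, 6.65, 7.05 and 7.51 in naive astrocytes. It ran from 4.72 through a median of 5.53 to 6.27 in EAE-vehicle astrocytes, and again the groups did not overlap. Its change was -1.64 (standard error 0.57, limma adjusted p = 0.389, exact permutation p = 0.00476), and it was called under each of 26 alternatives, with changes from -1.81 to -1.49.

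Lrp1, the lipoprotein receptor, had the smallest p of the 9. It measured 6.70, 6.66, 7.43 and 6.92 in naive and 4.04 to 5.85, with a median of 4.90, in EAE-vehicle astrocytes, so that the highest EAE-vehicle library lay under the lowest naive library. The change was -2.01 (standard error 0.50, limma p = 0.00103 and adjusted p = 0.102, exact permutation p = 0.00476). It was called under each of 26 alternatives with changes from -2.20 to -1.84, and the adjusted p ranged from 0.0153 to 0.343. Among genes of a mean log2 value of at least 1, groups that did not overlap with EAE-vehicle lower made up 3.39%, and among the members they were Srebf1, Insig1 and Lrp1.

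Abca1 measured 3.50, 3.27, 3.50 and 2.09 in naive astrocytes, and 0.18 at the lowest, 1.55 at the median and 2.71 at the highest in EAE-vehicle astrocytes. Naive library 4, the one with endothelial transcripts, was the low naive value and made the groups overlap. The lowest EAE-vehicle value was from library 1, which held no signal for the gene. The change was -1.67 (standard error 0.57, limma adjusted p = 0.369, exact permutation p = 0.0333). Without EAE-vehicle library 1 it was -1.42 and without that library and naive library 4 it was -1.76, both still called, and with only genes of a mean log2 value of at least 1 in the fit limma's p was 0.0602.

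The other 5 were not called in astrocytes. Srebf2 measured 6.48, 4.52, 6.54 and 7.35 in naive and 0.00 to 5.74, with a median of 5.13, in EAE-vehicle astrocytes. Its change of -1.83 (95% interval -3.81 to 0.15) became -0.95 without EAE-vehicle library 1, where it had no signal. Scap measured 3.73, 3.60, 4.46 and 4.89 in naive astrocytes against 0.25 to 4.73, with a median of 2.31, in EAE-vehicle astrocytes, a change of -2.02 (95% interval -4.07 to 0.03, exact permutation p = 0.0571). The 2.16 of EAE-vehicle library 1 was a value without signal that enters this median and change. Only EAE-vehicle library 6 lay within the naive range. Scap was called without EAE-vehicle library 6 (-2.54) and without EAE-RIPK1inh library 2 or 5, which changes the estimate of the spread alone. Srebf2 was called without naive library 2 (-2.40) or EAE-vehicle library 4 (-2.10) or 5 (-2.08). Outside EAE-vehicle library 1 the groups overlapped for Nr1h2: the other 5 EAE-vehicle values were 5.32 to 5.88 and the naive values 4.43 to 6.59. Its change was -0.86 with that library and -0.04 without it. Nr1h3 (-0.53, 95% interval -2.71 to 1.66) and Abcg1 (0.78, 95% interval -1.27 to 2.83) varied widely within groups, Abcg1 from 0.24 to 5.27 among EAE-vehicle astrocytes. Without EAE-vehicle library 1 their changes were -0.16 and 0.25.

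**Figure D2:**
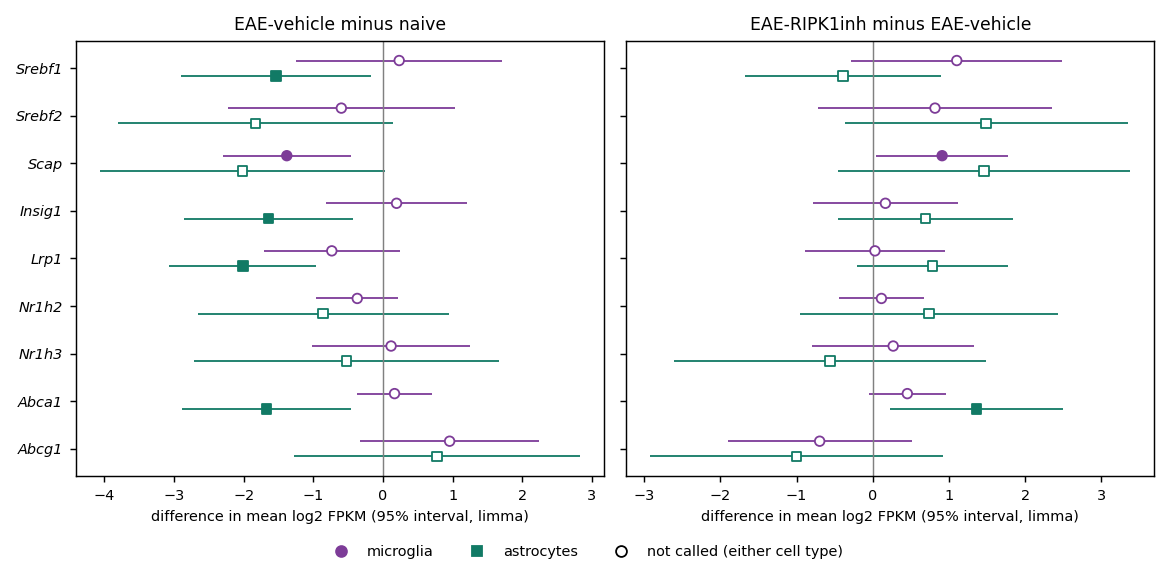
Difference in mean log2 FPKM with its 95% interval from limma (x axis) for each gene (y axis), EAE-vehicle minus naive on the left and EAE-RIPK1inh minus EAE-vehicle on the right. Circles are microglia, squares are astrocytes and filled symbols were called. On the left 8 of the 9 astrocyte differences are below 0, from -2.02 to -0.53, and on the right the filled astrocyte symbol is Abca1 at 1.36.

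Marker levels moved with these differences in the astrocytic libraries. The mean of 9 astrocyte markers was 9.27 ± 0.26 (SD) over the 4 naive libraries. It was 8.09 ± 0.37 over the 6 with vehicle and 8.70 ± 0.41 over the 5 with inhibitor. Oligodendrocyte markers averaged 6.63 ± 0.57, 8.77 ± 1.26 and 8.54 ± 0.55 in the same groups, and T cell markers 0.54 ± 0.40, 4.10 ± 1.76 and 3.34 ± 1.92. Monocyte and neutrophil markers averaged 0.50 ± 0.45, 3.17 ± 0.97 and 2.52 ± 1.51. The 6 neuron markers averaged 4.76 ± 0.48 in naive, 5.52 ± 0.30 in EAE-vehicle and 4.78 ± 0.54 in EAE-RIPK1inh astrocytic libraries, higher in EAE-vehicle than in both other groups. Among EAE-vehicle libraries, library 1 was lowest in both astrocyte markers and Lrp1 (7.60 and 4.04) and library 4 highest in both (8.71 and 5.85). EAE-RIPK1inh library 5 had the highest astrocyte marker level of its group, 9.32, and the highest Lrp1, 7.37, Insig1, 7.68, and Srebf1, 6.15. The part of the marker levels in the results was not tested.

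**Figure D3:**
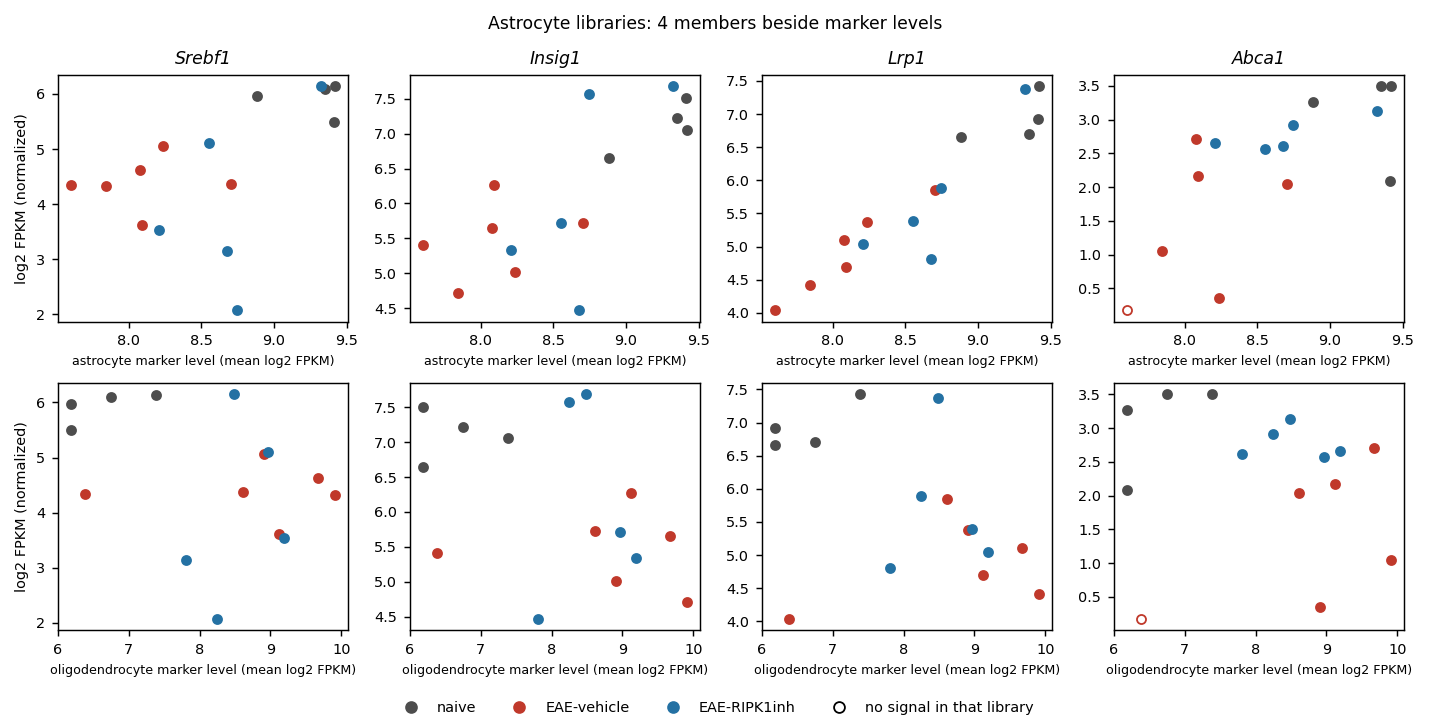
Level of Srebf1, Insig1, Lrp1 and Abca1 (y axes, log2 FPKM) in the 15 astrocytic libraries against the mean level of 9 astrocyte markers (upper row) and 7 oligodendrocyte markers (lower row), with groups by color and an open point for a library without signal. Lrp1 runs from 4.04 at an astrocyte marker level of 7.60 to 7.43 at 9.42, while the EAE-vehicle libraries span oligodendrocyte marker levels of 6.38 to 9.91 with Lrp1 at 4.04 to 5.85.

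The genes on which these regulators act had changes mostly below 0 in EAE-vehicle astrocytes as well. Some genes, Apoe among them, count in 2 lists. Of all genes tested 4.01% were called lower, and 9.02% of those of a mean log2 value of at least 1. Of 22 SREBP-2 targets 8 were called lower and 0 higher, with a median change of -1.21, and 20 of 22 changes were below 0. Among the called genes were 7 enzymes of sterol synthesis, namely Dhcr7 (-3.75), Mvd (-3.73), Msmo1 (-3.56), Hsd17b7 (-2.59), Sqle (-2.26), Lss (-2.03) and Sc5d (-1.66). Some of these enzymes were picked by the study from these libraries, so the count is not independent of that choice. Of 11 SREBP-1 targets 3 were called lower, Fads1 (-2.44), Acss2 (-1.82) and Gpam (-1.22), and Me1, the malic enzyme, higher (1.06), with a median of -0.84. Of 12 LXR targets 4 were called lower and 0 higher: Apoe, the main lipoprotein of the brain, went from 13.92 to 11.62, a change of -2.30 (standard error 0.36, limma adjusted p = 0.00602), and Lpcat3 (-3.00), Mertk (-2.41) and Smpdl3a (-1.95) did not pass adjustment. Fasn, whose promoter shares the LXR element with Abca1 and Srebf1, was at 5.11 in naive and 4.30 in EAE-vehicle astrocytes and was not called. Oxysterol enzymes make or break down LXR ligands, and 4 of 6 were called lower: Cyp46a1, Cyp27a1, Cyp7b1 and Hsd3b7. Cyp46a1, the 24-hydroxylase of cholesterol, was listed at 0 in all EAE-vehicle astrocytic libraries.

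Transport genes gave mixed counts. In lipoprotein uptake 2 of 12 were called lower and 0 higher, while 9 of 12 changes were above 0, with a median of 0.24. The called genes included Lrpap1, the chaperone of LRP1 (from 7.41 to 5.90, a change of -1.51, limma adjusted p = 0.124). In efflux and lipoproteins 3 of 11 were called lower (Apoe, Clu and Lcat), while Apod, a lipocalin of glia, rose by 5.05 from 5.65 to 10.70 (standard error 0.72, limma adjusted p = 0.00301). Of 9 SREBP processing genes 1 was called lower (Rnf139), as was 1 of 13 genes of intracellular transport and storage (Lipa), shares close to that 9.02%. Oligodendrocyte, neuron, monocyte and T cell marker levels differed between the same groups, as given above, and were not separated from these counts.

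With the RIPK1 inhibitor, the astrocytic Abca1 level stood above that of vehicle, and no other member was called. Abca1 measured 2.92, 2.61, 2.57, 2.66 and 3.13 in the 5 EAE-RIPK1inh libraries, a narrow range above the vehicle median of 1.55, and 1 EAE-vehicle library, at 2.71, lay within it. All 5 were above the EAE-vehicle mean. The difference was 1.36 (standard error 0.53, limma p = 0.0224 and adjusted p = 0.840, exact permutation p = 0.0281, two-sided). This was 1 of 9 members called, beside 3.02% of all genes and 6.23% of those of a mean log2 value of at least 1. In this comparison 0 genes passed an adjusted p of 0.05 in limma. Without EAE-vehicle library 1 the difference was 1.11 and still called. The call was lost under 3 of 26 alternatives, namely library quality weights (0.85), only genes of a mean log2 value of at least 1 in the fit (1.36) and the replicate number as a block (1.29).

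Srebf2 measured 5.57, 5.79, 5.74, 6.27 and 6.03 with the inhibitor, all above the EAE-vehicle mean of 4.39. The difference of 1.49 (95% interval -0.37 to 3.34, exact permutation p = 0.0519) became 0.61 without EAE-vehicle library 1. Scap measured 3.76, 0.44, 3.85, 4.55 and 5.45, a difference of 1.46 (95% interval -0.46 to 3.38), and it was called without EAE-RIPK1inh library 2 (2.25) or EAE-vehicle library 6 (1.98). Insig1 split in the inhibitor group, with 7.57 and 7.68 in libraries 1 and 5 and 4.47, 5.72 and 5.34 in libraries 2, 3 and 4. Its difference was 0.69 (95% interval -0.45 to 1.84), and 1.11, then called, without library 2. Lrp1 measured 5.89, 4.81, 5.39, 5.04 and 7.37, a difference of 0.79 (95% interval -0.21 to 1.78). Srebf1 spread from 2.07 to 6.15 with the inhibitor, a difference of -0.39 (95% interval -1.67 to 0.90), and library 1, high in Insig1, held the lowest Srebf1. Nr1h2 (0.74, 95% interval -0.96 to 2.43), Nr1h3 (-0.56, -2.61 to 1.49) and Abcg1 (-1.0, -2.92 to 0.93) were not called, and without EAE-vehicle library 1 they were -0.079, -0.93 and -0.47.

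Most SREBP-2 targets had differences above 0. Of 22 SREBP-2 targets 21 had a difference above 0 with a median of 1.03, against -0.03 over all genes tested. Called higher were 4, Mvd (2.99), Msmo1 (2.56), Lss (2.02) and Idi1 (1.03). Of all genes 1.84% were called higher, and 3.52% of those of a mean log2 value of at least 1. Some enzymes of sterol synthesis were picked by the study from these libraries for this comparison too, so the counts are not independent of that choice. Mvd, Msmo1 and Lss had been called lower in EAE-vehicle against naive, and both comparisons share the EAE-vehicle libraries. Of 11 SREBP-1 targets 2 were called higher, Acss2 (1.25) and Fads2 (1.22). Of 12 LXR targets Mertk, a receptor for the uptake of dying cells, (1.79) and Apoe (0.86) were called higher, and elsewhere Lcat (1.77), which esterifies cholesterol in lipoproteins, and Stard3 (2.57), a late endosomal sterol carrier. The adjusted p of each of these target and transport genes with the inhibitor was 0.840 in limma. Compared with naive astrocytes, EAE-RIPK1inh astrocytes were called lower for Srebf1 (-1.92, limma adjusted p = 0.742) and Lrp1 (-1.23, limma adjusted p = 0.897). That was 2 of 9 members, beside 4.63% of all genes and 9.81% of those of a mean log2 value of at least 1. Lrp1 lost that call without naive library 3 or 4 or EAE-RIPK1inh library 2, 3 or 4, with limma p between 0.0547 and 0.0869. Abca1 was at 2.78 ± 0.24 (SD, n = 5) with the inhibitor and at 3.09 ± 0.67 (SD, n = 4) in naive mice, a difference of -0.31 (95% interval -1.57 to 0.95).

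**Figure D4:**
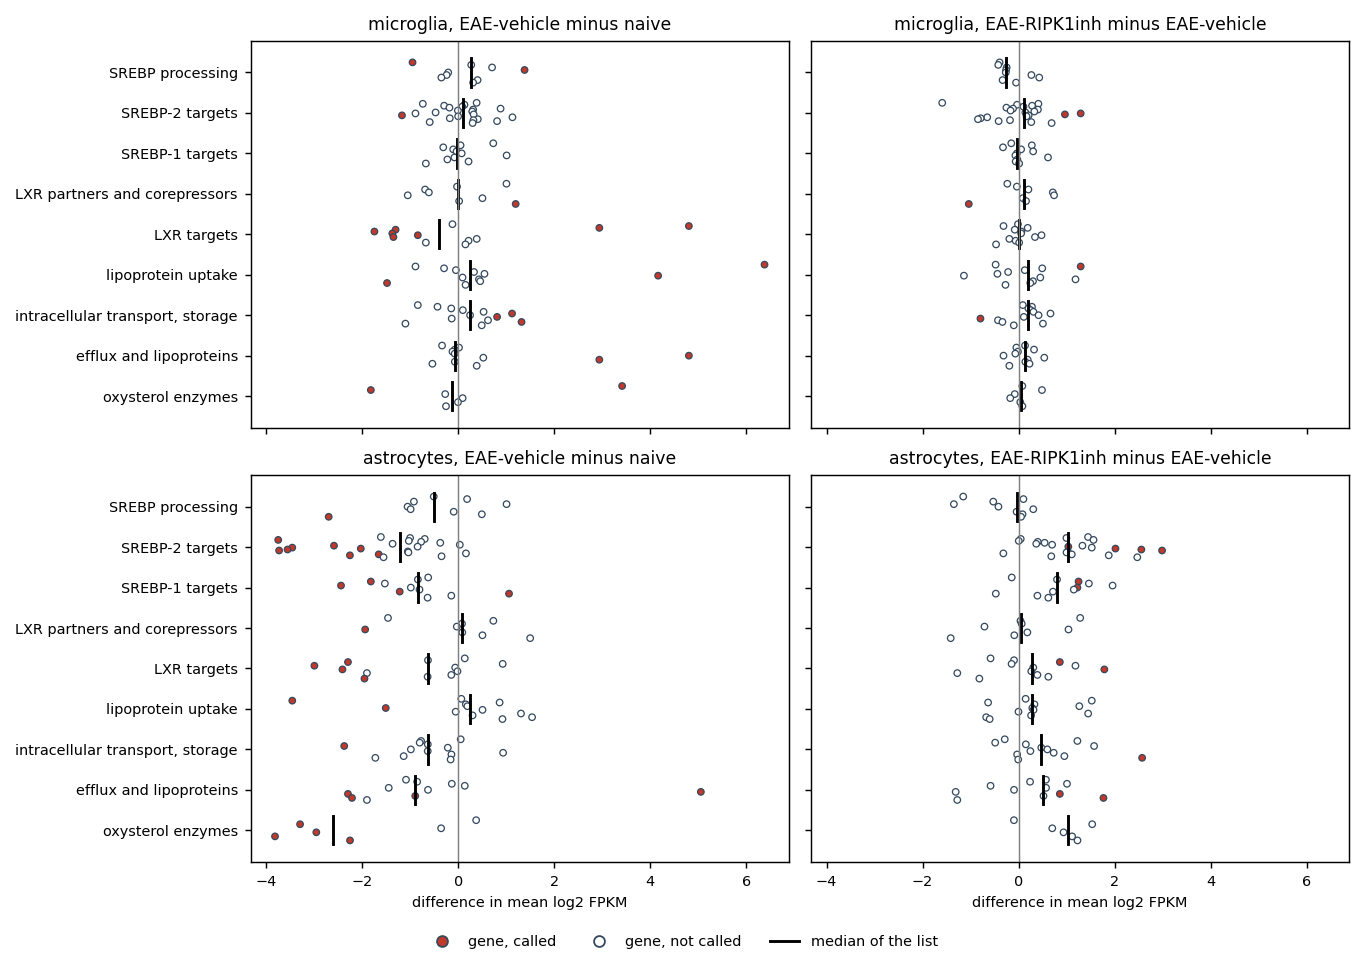
Difference in mean log2 FPKM (x axis) of each gene of 9 pathway lists (y axis), for microglia in the upper and astrocytes in the lower row, EAE-vehicle minus naive on the left and EAE-RIPK1inh minus EAE-vehicle on the right. Filled points were called and the black bar is the median of the list. In astrocytes the SREBP-2 target median is -1.21 on the left and 1.03 on the right, and in microglia it is 0.11 and 0.12.

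In microglia Scap, the sterol sensor and escort of SREBPs, was the single member called in EAE. It was 1 of 9 where 12.0% of all genes were called, 5.86% as lower, and 29.0% of genes of a mean log2 value of at least 1. It measured 3.50, 2.91, 3.09 and 3.98 in naive microglia and 1.39 at the lowest, 1.87 at the median and 2.61 at the highest in EAE-vehicle microglia, with no overlap. The change was -1.38 (standard error 0.43, limma p = 0.00611 and adjusted p = 0.104, exact permutation p = 0.00952). It was called under 24 of 25 alternatives, and not with both cell types in 1 fit. Groups apart in that direction made up 5.67% of genes of a mean log2 value of at least 1.

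Lrp1 measured 6.04, 6.44, 7.30 and 6.67 in naive and 5.42 to 6.34, with a median of 5.87, in EAE-vehicle microglia. All 6 were below the naive mean of 6.61, and the change of -0.74 (95% interval -1.72 to 0.24) was not called by limma, with an exact permutation p of 0.0286. It was called with EAE-RIPK1inh library 1 left out (-0.74). Abcg1 measured 7.07, 6.35, 4.58 and 5.95 in naive microglia and 6.28 to 7.59, with a median of 6.81, in EAE-vehicle microglia, all above the naive mean, with a change of 0.96 (95% interval -0.33 to 2.24, exact permutation p = 0.0714). Abca1 was at 3.79 ± 0.31 (SD, n = 4) and 3.95 ± 0.31 (SD, n = 6), a change of 0.17 (95% interval -0.37 to 0.70). Insig1 (0.19, -0.82 to 1.21), Srebf1 (0.23, -1.24 to 1.71), Srebf2 (-0.60, -2.23 to 1.03), Nr1h2 (-0.37, -0.96 to 0.22) and Nr1h3 (0.12, -1.02 to 1.25) were not called either.

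Around these members, single genes of lipid handling moved far in EAE microglia. Cd36, a scavenger receptor for oxidized lipoproteins, rose by 6.38 from 1.24 to 7.62 (limma adjusted p = 9.56e-06), and Msr1, another scavenger receptor, rose by 4.16 (limma adjusted p = 9.80e-04). Apoc1 rose by 4.80 (limma adjusted p = 3.34e-06) and Apoe rose by 2.94, from 11.18 to 14.11 (limma adjusted p = 0.00173). Ch25h, which makes 25-hydroxycholesterol, rose by 3.41 from 1.39 to 4.80 (limma adjusted p = 0.00474), and Npc2, which moves cholesterol out of lysosomes, rose by 0.81 (limma adjusted p = 0.0318). Among other LXR targets Lpcat3 fell by 1.75, Mylip fell by 1.35 and Arl4c fell by 1.31 (limma adjusted p = 0.0134, 0.0180 and 0.0360). Trem2 fell by 1.48 (limma adjusted p = 1.83e-04) and Cyp27a1, the sterol 27-hydroxylase, fell by 1.82 (limma adjusted p = 0.0326). Of 12 LXR targets 2 were called higher and 5 lower, so the list had no common direction. Of all genes 6.13% and 5.86% were called higher and lower, and 16.0% and 12.9% of those of a mean of at least 1. Of 22 SREBP-2 targets 1 was called, Msmo1, as lower. Microglia markers averaged 10.3 ± 0.36 (SD, n = 4) in naive and 7.96 ± 0.26 (SD, n = 6) in EAE-vehicle microglia, and monocyte and neutrophil markers 3.87 ± 2.25 and 5.11 ± 1.85. Their part in these values was not tested.

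With the inhibitor, Scap was the single microglial member called, at 1.78, 2.13, 3.70, 3.73 and 3.18 in the 5 libraries against the EAE-vehicle range of 1.39 to 2.61. Libraries 3, 4 and 5 lay above every EAE-vehicle library and libraries 1 and 2 within their range. The difference was 0.91 (standard error 0.40, limma p = 0.0401 and adjusted p = 0.930, exact permutation p = 0.0758). Scap was 1 of 9 members, beside 1.76% of all genes and 3.64% of those of a mean log2 value of at least 1. The call was lost when EAE-vehicle library 1, 4, 5 or 6 or EAE-RIPK1inh library 3, 4 or 5 was left out (differences of 0.86, 0.84, 0.79, 0.91, 0.71, 0.70 and 0.84, with limma p between 0.0575 and 0.115). Abca1 measured 4.06, 4.53, 4.09, 4.27 and 5.08 with the inhibitor, all above the EAE-vehicle mean of 3.95, a difference of 0.45 (95% interval -0.05 to 0.96, exact permutation p = 0.0606). Against naive microglia Abca1 was called higher, by 0.62 (standard error 0.26, limma p = 0.0317 and adjusted p = 0.330, exact permutation p = 0.0238), with the highest naive library at 4.00 and the lowest inhibitor library at 4.06. Of genes of a mean of at least 1, 6.75% were apart in that way. Abca1 was 1 of 9 members called, beside 10.1% of all genes and 23.9% of those of a mean log2 value of at least 1. The call was lost without naive library 1 (0.47) or EAE-RIPK1inh library 2 (0.59) or 5 (0.45).

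The 5 inhibitor-treated microglial libraries fell into 2 sets by several members at once. Libraries 1 and 2 held high Insig1 (5.50 and 5.33) and Abcg1 (7.14 and 8.09) and low Lrp1 (4.24 and 5.18), Srebf1 (2.23 and 1.44) and Scap (1.78 and 2.13). Libraries 3, 4 and 5 held Insig1 at 3.14 to 3.81, Abcg1 at 4.65 to 5.82, Lrp1 at 6.38 to 6.87, Srebf1 at 3.01 to 4.34 and Scap at 3.18 to 3.73. Abca1 did not divide the libraries, at 4.06 and 4.53 against 4.09 to 5.08. Srebf1 differed from EAE-vehicle by 1.10 (95% interval -0.28 to 2.49) over all 5 libraries and by 1.5, then called, without library 2. Abcg1 differed by -0.70 (95% interval -1.90 to 0.51) and by -1.16, then called, without library 2. Srebf2 (0.82, 95% interval -0.71 to 2.35), Insig1 (0.17, -0.79 to 1.12), Lrp1 (0.03, -0.89 to 0.95), Nr1h2 (0.11, -0.44 to 0.67) and Nr1h3 (0.27, -0.80 to 1.33) were not called. Genes with signal numbered 14105 to 14865 in these 5 libraries, and microglia markers averaged 8.29 and 7.74 in libraries 1 and 2 and 8.47 to 9.42 in libraries 3, 4 and 5. Library 3 held monocyte and neutrophil markers at 8.24 and T cell markers at 2.01, against 2.02 to 4.26 and 0.11 to 0.46 in the others. The part of the marker levels in this division was not tested. Genes of the pathway lists called with the inhibitor included Lss (0.96), which was higher, and Rxrg (-1.04) and Osbp (-0.80), which were lower, none past adjustment (limma adjusted p = 0.930).

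The effect of EAE was compared between the cell types as a term in 1 fit of all 30 libraries. Abca1 differed, with a change of 0.17 in microglia and -1.67 in astrocytes, a difference of 1.84 between them (95% interval 0.63 to 3.04, limma adjusted p = 0.163). Insig1 changed by 0.19 in microglia and -1.64 in astrocytes, a difference of 1.84 (95% interval 0.28 to 3.40, limma adjusted p = 0.390). These 2 of 9 members were called, where 8.68% of all genes were and 17.4% of those of a mean log2 value of at least 1. Insig1 lost the call without microglia naive library 3 (1.58) and without astrocyte EAE-vehicle library 1 and naive library 4 together (1.69). The differences of Srebf1 (1.77, 95% interval -0.18 to 3.72) and Lrp1 (1.28, -0.11 to 2.67) were not called. For the inhibitor, 0 of 9 members were called in this test, beside 3.15% of all genes, and the difference for Abca1 was -0.91 (95% interval -2.04 to 0.23).

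Across the 15 libraries of a cell type, which share groups and differ in how many genes had signal, each member was set against protein-coding genes of a mean log2 value of at least 1. These values describe the libraries and carry no test. In astrocytes Lrp1 was nearest to Slc1a2, the glutamate transporter GLT-1 (Pearson's r = 0.954), Gja1, a gap junction protein (0.949), and Cd81 (0.942) among 10414 genes, and the first 2 are markers of astrocytes. Abca1 was nearest to Car14 (0.915), Tlcd1 (0.913) and Ddr1 (0.885). Insig1 was nearest to Slco1c1 (0.918), Mpv17l2 (0.912) and Igdcc4 (0.898), and Srebf1 to Atl2 (0.885), Ptprm (0.852) and Padi2 (0.842). Srebf2 (Slc41a1, 0.961) and Nr1h2 (Hp1bp3, 0.962) had the closest neighbors, and both were at or near 0 in EAE-vehicle library 1, a single point far from the rest.

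In microglia Abcg1 was nearest to Twf1 (0.949), Arpc5 (0.935) and Sri (0.926), the first 2 being regulators of actin, and Insig1 to Ptp4a1 (0.901), Gm2a (0.898) and Twf1 (0.884). Lrp1 was nearest to Ckb (0.917), Scap to Dido1 (0.909), Srebf1 to Nenf (0.893), Nr1h2 to Ganab (0.866), Srebf2 to Slc38a1 (0.850) and Abca1 to Myo5a (0.726). Between members the pairs of the 2 cell types differed. Insig1 and Lrp1 had r = 0.811 in astrocytes and -0.902 in microglia, the lowest among 9703 genes for that member, and Insig1 and Abcg1 had r = 0.825 in microglia. The 36 pairs in astrocytes ran from -0.66 to 0.86 with a median of 0.24, and the 28 pairs in microglia, where Nr1h3 was too low to enter, from -0.90 to 0.82 with a median of 0.11. The division of the inhibitor-treated microglial libraries enters each of these microglial values, as does the spread within the other groups. Naive library 1 held higher Insig1 (4.59) and Abcg1 (7.07) and lower Lrp1 (6.04) than naive library 3 (3.14, 4.58 and 7.30). Scap, at 3.50 and 3.09 there, went against the order of the inhibitor-treated sets. Naive library 3 also held monocyte and neutrophil markers at 7.05, against 1.97 to 3.78 in the other naive microglial libraries, and their part was not tested.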

How the data were processed

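RNA sequencing of 30 sorted-cell libraries was deposited as 1 table of log2 FPKM values per gene, which the authors computed and quantile-normalized in OmicSoft Array Studio on mouse GRCm38. The table's annotation placed 9 of 9 members at their GRCm38 positions. Counts are not part of the values used here, so depth is unknown and precision rests on the spread between libraries. Libraries of a cell type were treated as separate mice, of which the study gives 4 naive, 6 EAE-vehicle and 5 EAE-RIPK1inh, so the 30 libraries may stand for 15 mice with both cell types from each. The labels give replicate numbers, not mice, and the fits across cell types treated all libraries as independent, with a block on treatment and replicate number as an alternative. P-values measure only the spread between libraries.

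Each cell type was fitted with limma 3.58.1 in R 4.3.3 (eBayes with a trend) on the deposited log2 values with its 3 groups together, and comparisons of cell types with all 30 libraries. Genes with 1 value throughout were left out. A gene was called at a fold over 1.5 and p under 0.05, and Benjamini-Hochberg adjustment ran over all genes. The study's methods name a paired test, and no block was used here because the labels do not pair mice. Exact two-sided permutation tests were added per member. A gene had no signal in a library where its value lay in the lowest stretch, whose order is that of the rows. The tests were checked on simulated data.

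Members and lists were chosen with earlier results of these data known. Named from the lists were up to 4 genes per comparison with the largest change past adjustment, and, chosen after their values were seen, the genes called without adjustment; a few called genes are not reported here by name. Pattern neighbors were the 3 protein-coding genes of highest Pearson's r. Alternatives changed the low-value filter, centering, library weights, block, groups in the fit and libraries left out. Sequences came from RefSeq promoters on GRCm38.p6.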

Additional observations from a re-analysis of the deposited data

Results flagged for a closer look

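In 54 groups of 4 to 6 libraries, 5 held a library far from the others of its group for 1 member, where chance gives about 1 in 20 groups. Srebf2 stood at 0.00 in EAE-vehicle astrocyte library 1 and at 4.74 to 5.74 in the other 5, and Nr1h2 at 0.66 in the same library and at 5.32 to 5.88 in the others. That library had no signal for either gene and the fewest genes with signal, 6728. Abca1 stood at 2.09 in naive astrocyte library 4 against 3.27 to 3.50. In microglia, naive library 1 was apart for Nr1h3, at 1.76 against 0.00 to 0.07, and for Abca1, at 3.32 against 3.89 to 4.00.

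The change in EAE differed between microglia and astrocytes by limma's interaction term for Insig1 (a difference of 1.84) and for Abca1 (a difference of 1.84), at unadjusted p of 0.0225 and 0.00423. Neither passed adjustment over all genes.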

How the results depend on the processing

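Of 916 member values recomputed within a cell type, 842 kept their direction and call, 21 lost a call, 28 gained one and 25 reversed, none of the reversed values being called. Reversed values were Insig1 at -0.038 for the inhibitor in microglia with quality weights, and Nr1h2 at 0.29 for EAE and -0.079 for the inhibitor in astrocytes without EAE-vehicle library 1 and naive library 4, a pair chosen after seeing the data. With 1 library left out, EAE changes in microglia ran from -0.14 to 0.55 for Nr1h3, -0.060 to 0.42 for Insig1 and -0.34 to 0.78 for Srebf1. Inhibitor differences in microglia ran from -0.21 to 0.44 for Lrp1, -0.14 to 0.45 for Insig1, -0.0037 to 0.33 for Nr1h2 and -0.037 to 0.52 for Nr1h3. In astrocytes they ran from -1.15 to 0.0096 for Nr1h3 in EAE, and with the inhibitor from -0.079 to 0.97 for Nr1h2 and -0.93 to 0.094 for Srebf1.

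Members called for the inhibitor in microglia, 1 of 9, became 0 with genes of a mean of at least 1, with only the 2 groups and with all 30 libraries, 3 with quality weights, and 0 to 3 with 1 library left out. Against naive they became 0 with that filter, with centering, with 2 groups and with all 30 libraries, and 0 to 2 with 1 library left out, the 2 without naive library 3. For EAE in microglia they became 2 with 2 groups, 0 with all 30 libraries and 1 to 2 with 1 left out. In astrocytes they became 0 with the filter, 0 with quality weights, 2 with all 30 libraries and 1 to 3 with 1 left out for the inhibitor, and 1 with centering and 1 to 3 with 1 left out against naive. For EAE in astrocytes, 4 of 9, they ran from 3 to 6. The EAE interaction, 2 of 9, gave 0 with quality weights and 1 without the 2 astrocyte libraries. The inhibitor interaction, 0 of 9, gave 0 to 1 with 1 left out, the 1 without EAE-vehicle library 3 or EAE-RIPK1inh library 5 of astrocytes or EAE-RIPK1inh library 2 of microglia. The cause was not tested. Counts over all genes moved by more than 1.5 times for EAE in astrocytes, from 2060 to 3698 (quality weights) and 3612 (all 30 libraries), for the inhibitor in astrocytes from 927 to 2318 (all 30 libraries), and for the inhibitor in microglia from 511 to 2730 (quality weights), 315 (all 30 libraries) and 953 (without EAE-RIPK1inh library 2).

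Same-numbered libraries did not deviate together: 4 of 26 pairs within a cell type and 2 of 15 across cell types had a correlation over 0.1, so the numbers were not taken to pair mice. With the replicate number as a block, members called were 3 for EAE, 0 for the inhibitor and 1 against naive in microglia, 5, 1 and 3 in astrocytes, 4 in the EAE interaction and 1 in the inhibitor interaction. The block changed which members were called: Abca1 lost its calls for the inhibitor in astrocytes (1.29) and against naive in microglia (0.57), where Scap (1.98) and Lrp1 (-0.88) were called instead, and Scap lost its call for the inhibitor in microglia (0.91). Scap (-2.92) in astrocytes and Lrp1 (-0.88) and Abcg1 (1.17) in microglia gained a call for EAE, and Insig1 (-1.22) gained one in astrocytes against naive. The added interaction calls were Srebf1 (1.77) and Lrp1 (1.28) for EAE and Srebf1 (1.49) for the inhibitor, and Nr1h3 lost its call between the cell types in naive mice. Under the block Srebf1 (-0.12) and Nr1h3 (-0.25) reversed for EAE in microglia.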
